A study of Mus musculus with 3 samples.

Results

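The core circadian clock genes were examined for the histone mark H3K27me3 in mouse kidney. The members were 10 named genes of 21900 protein-coding genes in the gene table: the activators Clock and Npas2, the repressors Per1, Per2, Per3, Cry1 and Cry2, and the output regulators Dbp, Tef and Nfil3. All 10 were found by symbol in that table, and a peak was assigned to a member when it overlapped the gene or lay within 20 kb of it (GRCm38). The data were 1 H3K27me3 ChIP-seq library from the kidney of ADA-treated C57BL/6 mice and 1 from untreated C57BL/6 mice. The input served the authors' peak caller alone: the labels list 1 input, from untreated mice, while the file headers name an input of its own for each library, with 22100010 fragments (ADA-treated) and 23891586 (untreated). The labels do not spell out ADA. The title of the series also names pod-SAHH-/- mice, which were not analysed here. How many animals a library holds, their age and the hour at which tissue was taken are not stated in these sources. Peak calling used 20602041 ChIP fragments for the ADA-treated library, against 18849785 for the untreated one, and gave lists of 17612 and 8074 peaks. A histone mark gives no expression values, so the tissue label could not be checked against marker genes. Each group held 1 library, so the groups could not be tested against each other and no value has a replicate check.

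The circadian clock of mammals is a feedback loop of transcription. CLOCK, or its relative NPAS2, pairs with BMAL1 and switches on genes that carry E-box sequences, among them the Per and Cry genes. The PER and CRY proteins then return to the nucleus and hold their own activators back. DBP and TEF activate, and NFIL3 represses, a further set of rhythmic genes through sequences called D-boxes. In the kidney this clock times filtration and the handling of sodium and water. H3K27me3 is placed by the Polycomb complex PRC2 and is best known from silent genes.

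Every clock gene had at least 1 peak in the ADA-treated list, and all but Nfil3 had 1 in the untreated list. In the window of the gene body with 20 kb on each side, 10 of 10 members had an ADA-treated peak, where 61.1% of all protein-coding genes had one, and 9 of 10 had an untreated peak, where 39.3% of all genes had one. Of the protein-coding genes between 5104 and 169539 bp long, the span of the members, 67.4% had an ADA-treated peak in that window and 42.7% an untreated one. With the gene body alone, the members' counts were 10 (ADA-treated) and 8 (untreated), where 48.7% and 25.4% of all genes were marked. In bulk tissue, a strong mark in few cells and a weak mark in many cannot be told apart. The member lost on the gene body was Cry2, whose untreated peak lay 10666 bp outside the gene. Nfil3, marked in the ADA-treated list alone, belongs to a class that held 23.9% of all genes. When peaks under a pileup of 12 were left out, 10 of 10 members had an ADA-treated peak, where 45.2% of all genes had one. An untreated peak was left at 2 of 10, Per3 and Dbp, where 9.05% of all genes had one. Most untreated peaks were weak by the caller's q as well. A q of at most 5% kept 10642 of 17612 ADA-treated peaks but 518 of 8074 untreated ones. At that q, 10 of 10 members had an ADA-treated peak (52.9% of all genes). Again 2 of 10, Per3 and Dbp, had an untreated one (4.26% of all genes).

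**Figure D1:**
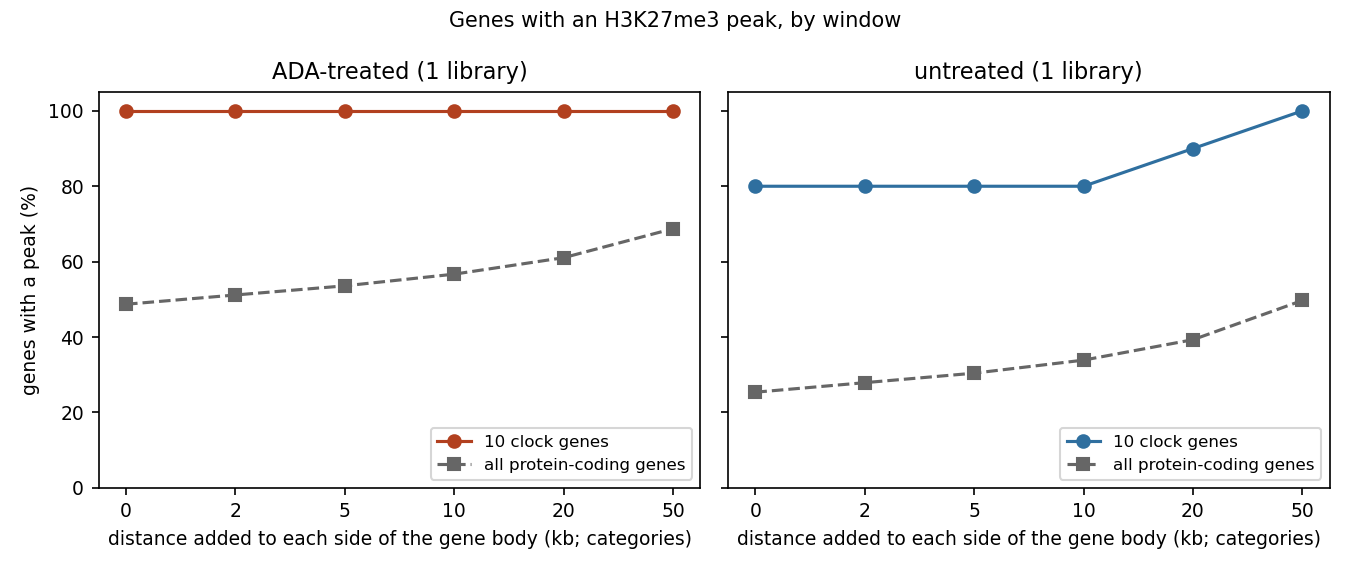
Percentage of genes with a peak against the distance added to each side of the gene body (kb), in the ADA-treated library (left) and the untreated library (right). Circles are the 10 clock genes and squares all 21900 protein-coding genes. The clock genes stand at 100% in the ADA-treated library at every distance, and in the untreated library at 80% up to 10 kb and at 90% at 20 kb.

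The windows of the 10 genes held 36 ADA-treated peaks and 13 untreated peaks. Of these, 17 ADA-treated and 8 untreated peaks overlapped the clock gene itself, and the other 19 and 5 lay outside it. An untreated peak overlapped 9 of the 36 ADA-treated peaks (25%), and an ADA-treated peak overlapped 9 of the 13 untreated ones (69.2%). In the whole lists these shares were 27% of ADA-treated and 59.1% of untreated peaks. Of the 9 overlapping places, 7 were on clock genes, at Clock, Npas2, Per2, Per3, Cry1, Dbp and Tef, and the other two were on Hes7 and Hes6.

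Strength is given below as the authors' fragment pileup, the mean number of ChIP fragments stacked over a peak, with its percentile within its own list. The smallest pileup either list holds is 10, so a gene without a peak lies under that limit and is not shown to lack the mark. The median pileup was 11.61 over all ADA-treated peaks and 10.72 over all untreated peaks. Each pileup describes its own list, and pileups of the 2 lists were not divided by each other. The strongest ADA-treated peak over each clock gene lay between 13.63 and 18.61, above the upper quartile of that list (13.51) for all 10 genes. Of all genes with an ADA-treated peak over the body, 42.1% had their strongest one above that value. The strongest untreated peak over the 8 genes that had one lay between 10.18 and 13.38, above that list's upper quartile (11.45) for 4 of them, Clock, Per3, Dbp and Tef. Of all genes with an untreated peak over the body, 33.0% had their strongest one above it. A gene with several peaks over it is given by the highest, so these shares, not the quartile of single peaks, are the background for the members.

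**Figure D2:**
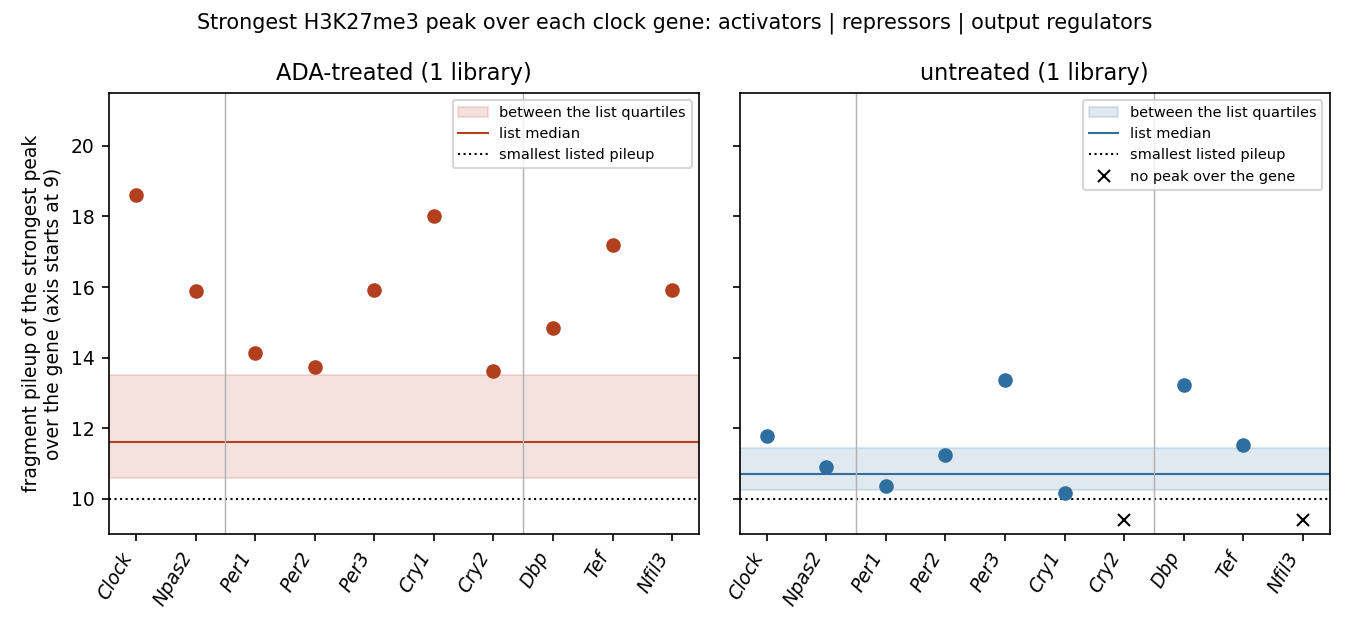
Fragment pileup of the strongest peak over each clock gene in the ADA-treated library (left) and the untreated library (right), with the list median (line), the range between its quartiles (band) and the smallest listed pileup of 10 (dotted). In the ADA-treated panel all 10 genes stand above the band, and in the untreated panel Clock, Per3, Dbp and Tef do, while Cry2 and Nfil3 have no peak over the gene (crosses). The band describes single peaks, and of all genes with a peak over the body 42.1% (ADA-treated) and 33.0% (untreated) have their strongest one above it.

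Both activators had a peak at the start-side end of the gene in both lists. Their untreated peaks had a −log10 q of 0.88 (Clock) and 0.55 (Npas2), short of a q of 5%. Clock (chr5:76209868-76305603, minus strand) encodes the histone acetyltransferase subunit of the activator pair. Its ADA-treated peak, chr5:76303604-76305308, had a pileup of 18.61 (percentile 96.7 of the list), the highest of any peak at a clock gene. The untreated peak, chr5:76303960-76305178, had 11.79 (percentile 82.5) and lay wholly inside the ADA-treated one. RefSeq gives Clock 3 start sites here. The ADA-treated peak overlapped the promoters of all 3, and the untreated peak those of 2. The innermost promoter was overlapped in part, and the ADA-treated peak did not reach its start at 76303502. No other peak of either list lay in the 136 kb window. The promoter of the outermost start is shown because it carries the strongest peak of the set. It holds 42 CpG dinucleotides and none of the motifs searched, so no letter is in capitals (RefSeq, GRCm38.p6, chr5:76304743-76305042, minus strand, 250 bases before to 50 after the start).
Clock: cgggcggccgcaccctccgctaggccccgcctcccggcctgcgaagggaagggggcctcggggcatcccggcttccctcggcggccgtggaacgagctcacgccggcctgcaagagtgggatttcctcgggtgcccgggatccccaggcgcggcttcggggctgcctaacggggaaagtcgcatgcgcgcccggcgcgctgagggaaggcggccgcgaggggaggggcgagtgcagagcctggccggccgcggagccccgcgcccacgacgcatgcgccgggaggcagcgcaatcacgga

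Npas2 (chr1:39193702-39363240, plus strand) encodes the protein that can stand in for CLOCK. The ADA-treated peak over its start, chr1:39193173-39194446, had a pileup of 15.9 (percentile 89.5). The untreated peak, chr1:39192894-39193751, had 10.91 (percentile 58.6). The peaks shared 579 bp, but the untreated one ended 521 bp before the RefSeq start and did not reach the promoter. The remaining ADA-treated peak in the window, with a pileup of 11.9, lay 4483 bp past the far end, on the ribosomal protein gene Rpl31.

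Of the repressors, Per3 and Cry1 were marked at the start-side end in both libraries, and Per1 and Cry2 there in the ADA-treated library alone. Per2, for which the gene sources used here gave no strand or start, was marked at its higher-coordinate end in both. The Per genes encode the PERIOD proteins, which bind CRY and carry it into the nucleus. Per1 (chr11:69095108-69109965, plus strand) had an ADA-treated peak of 547 bp, chr11:69098573-69099119, over the first of its 2 RefSeq starts, with a pileup of 14.14 (percentile 80). The second start, 1203 bp further, lay under no peak of either list. A weaker ADA-treated peak inside the gene had a pileup of 10.5, and another, of 13.48, lay 31 bp outside its start-side end. The only untreated peak on Per1, chr11:69104026-69104349, had a pileup of 10.38 (percentile 31.8) and lay 3874 bp past the nearer start. No peak on Per1 was therefore shared between the lists.

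Per2 (chr1:91415977-91459351) had the most peaks over its body. The ADA-treated list had 5, with pileups of 13.74, 11.21, 10.96, 10.24 and 10.09, and the untreated list 1, with 11.25 (percentile 70.0). The strongest ADA-treated peak, chr1:91458921-91460272 (percentile 76.9), and the untreated one, chr1:91457984-91459785, both spanned the gene end at 91459351 and shared 865 bp. The other four ADA-treated peaks were spread through the gene at pileups below that list's median, and no untreated peak overlapped them.

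Per3 (chr4:150997018-151044707, minus strand) was marked at its start in both lists. The ADA-treated peak, chr4:151044283-151045134, had a pileup of 15.91 (percentile 89.6). The untreated peak, chr4:151044386-151044802, had 13.38 (percentile 97.2), the highest untreated pileup among the clock genes, and lay wholly inside the ADA-treated peak. The Per1 and Per3 promoters are shown because both starts lay under an ADA-treated peak and each holds a clock motif. Capitals mark an E-box, CACGTG, in Per1 (chr11:69098699-69098998, plus strand) and 2 copies of the D-box TTATGTAA in Per3 (chr4:151044616-151044915, minus strand). The Per1 promoter also holds a match to NNAGGTCA, the core site of ROR and REV-ERB receptors, which is left in lower case.
Per1: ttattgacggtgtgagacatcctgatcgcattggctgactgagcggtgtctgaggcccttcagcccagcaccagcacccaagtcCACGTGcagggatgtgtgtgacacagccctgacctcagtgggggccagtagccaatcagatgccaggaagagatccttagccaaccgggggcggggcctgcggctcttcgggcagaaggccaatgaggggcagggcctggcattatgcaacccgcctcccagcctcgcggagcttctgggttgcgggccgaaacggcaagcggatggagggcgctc
Per3: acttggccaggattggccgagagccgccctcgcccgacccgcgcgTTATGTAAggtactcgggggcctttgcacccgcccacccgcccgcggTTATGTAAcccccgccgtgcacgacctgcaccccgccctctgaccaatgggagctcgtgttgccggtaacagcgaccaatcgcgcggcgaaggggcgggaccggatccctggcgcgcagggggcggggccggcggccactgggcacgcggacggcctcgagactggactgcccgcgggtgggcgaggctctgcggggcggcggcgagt

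The cryptochrome genes encode the proteins that block CLOCK and BMAL1 most directly. Cry1 (chr10:85131700-85185054, minus strand) had a single peak in each list, both over its start. The ADA-treated peak, chr10:85184319-85185639, had a pileup of 18.0 (percentile 95.7). The untreated peak, chr10:85184779-85185267, had 10.18 (percentile 21.0), close to the smallest value listed. Cry2 (chr2:92403646-92434085, minus strand) had an ADA-treated peak over its start, chr2:92433660-92434440, with a pileup of 13.63 (percentile 76.0), and no untreated peak on the gene. The Cry1 promoter is shown with its E-box, CACGTG, and an E-box variant in capitals (chr10:85185005-85185304, minus strand). The variant reads AACGTG on the strand shown, which is CACGTT on the other strand.
Cry1: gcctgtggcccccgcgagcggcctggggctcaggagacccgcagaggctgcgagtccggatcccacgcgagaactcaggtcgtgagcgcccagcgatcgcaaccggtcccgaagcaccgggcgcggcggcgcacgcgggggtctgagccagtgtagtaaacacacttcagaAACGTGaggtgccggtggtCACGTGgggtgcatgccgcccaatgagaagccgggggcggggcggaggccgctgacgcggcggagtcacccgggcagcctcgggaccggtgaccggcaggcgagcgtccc

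Activators and repressors did not separate by presence of the mark, and the repressors' windows held more peaks for their length. Both activators and all 5 repressors had an ADA-treated peak over the gene, and both activators and 4 of 5 repressors had an untreated one. The strongest ADA-treated pileups over the gene were 15.9 and 18.61 for the activators and 13.63 to 18.0 for the repressors, with overlapping ranges. In the untreated list they were 10.91 and 11.79 for the activators and 10.18 to 13.38 for the repressors, which again overlapped. With peaks under a pileup of 12 left out, 0 activators and 1 repressor had an untreated peak. The activators' windows held 3 ADA-treated and 2 untreated peaks over 345 kb, or 0.87 and 0.58 per 100 kb. Those of the repressors held 20 and 7 over 390 kb, or 5.13 and 1.80 per 100 kb. Summed over the windows of all protein-coding genes, there were 1.71 ADA-treated and 0.76 untreated peaks per 100 kb. In that sum, peaks and bases shared by neighbouring windows count once for each gene. Over the gene bodies alone, without the neighbours on either side, the activators had 0.75 and 0.75 peaks per 100 kb and the repressors 5.27 and 2.11, where all genes had 1.53 and 0.67 (ADA-treated and untreated). ADA-treated peaks covered 0.96% of the activators' windows and 6.32% of the repressors' windows, and untreated peaks covered 0.60% and 2.01%. Over the summed windows of all protein-coding genes, coverage was 1.81% (ADA-treated) and 0.72% (untreated). The activators lay below these shares and the repressors above them, in both lists. The density of other protein-coding genes differed too, with 1.16 per 100 kb in the activators' windows and 3.34 in the repressors' windows. Peak density was higher for the repressors in both lists, over the windows and over the gene bodies. The part of neighbouring genes in this was not tested. The activators are the longer genes, with 265 kb in 2 bodies against 190 kb in the repressors' 5. Those bodies held 2 ADA-treated and 2 untreated peaks for the activators, and 10 and 4 for the repressors. Of the repressors' 10 ADA-treated peaks, 5 lay on Per2. Counted per gene instead of per length, the repressors had more ADA-treated but fewer untreated peaks over the body than the activators. With 2 activators against 5 repressors in 1 library each, the difference itself was not tested.

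Many of the repressors' peaks lay on neighbouring genes. Of their 20 ADA-treated peaks 9, and of their 7 untreated peaks 3, were nearest to another protein-coding gene. Next to Per1, peaks overlapped Hes7, a repressor of the segmentation clock, with a pileup of 15.89 for the ADA-treated peak and 11.73 for the untreated one. Next to Per2, peaks overlapped the related gene Hes6 with 11.28 (ADA-treated) and 11.53 (untreated), 1546 and 1616 bp from Per2. Further ADA-treated peaks lay on Ilkap near Per2, with 12.38, and between genes near Per1, with 14.04. The vesicle fusion genes Vamp2, beside Per1, and Vamp3, beside Per3, each carried an ADA-treated peak with no untreated partner, with pileups of 16.99 and 15.82. Mapk8ip1, a scaffold of the JNK kinase pathway beside Cry2, carried 3 ADA-treated peaks, with pileups of 11.1, 14.57 and 10.44, and 1 untreated peak of 10.23 at another place.

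**Figure D3:**
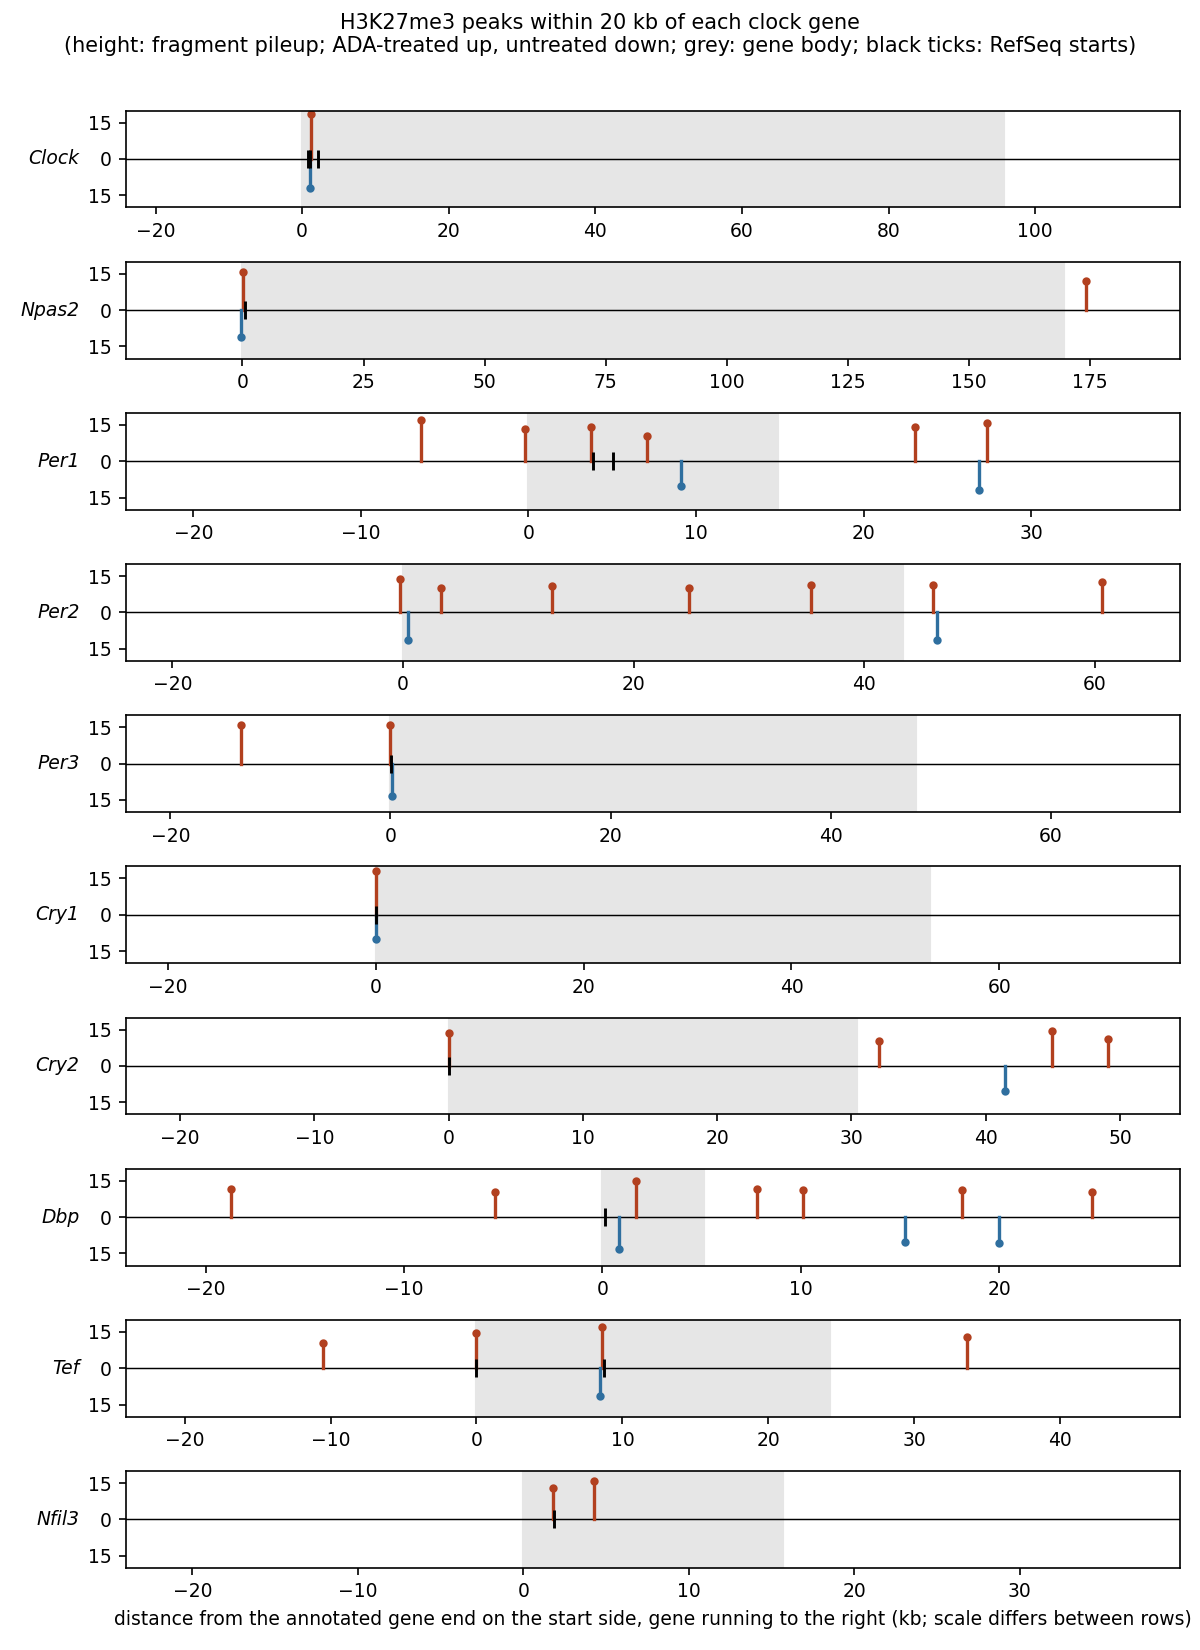
Peaks around each clock gene by distance (kb) from the annotated gene end on the side of the start, with the gene running to the right (for Per2, from its higher-coordinate end). Stems give the fragment pileup, ADA-treated upward and untreated downward, on gene bodies in grey with RefSeq starts as black ticks. Stems face each other near the start of Clock, Npas2, Per3, Cry1 and Dbp, at the higher-coordinate end of Per2 and at the inner start of Tef. Nfil3 has upward stems alone.

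The output regulators were marked at their starts as well, Dbp and Tef in both libraries and Nfil3 in the ADA-treated library alone. Dbp (chr7:45705100-45710203, plus strand), whose transcript is among the most strongly rhythmic in mammalian tissues, had an ADA-treated peak of 3890 bp, chr7:45704865-45708754, with a pileup of 14.84 (percentile 84.3). The untreated peak, chr7:45704921-45706920, was 2000 bp long, had 13.22 (percentile 96.6) and lay wholly inside it. These were the longest peaks over a clock gene in either list. The Dbp window is crowded, with 8 other protein-coding genes in 45.1 kb, and its other 6 ADA-treated and 2 untreated peaks, with pileups of 10.31 to 11.47 and of 10.37 and 10.63, lay on these neighbours.

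Tef (chr15:81802673-81826863, plus strand) has 2 RefSeq starts that differed between the lists. Over the outer start the ADA-treated list had a peak, chr15:81802262-81803072, with a pileup of 14.7 (percentile 83.5), and the untreated list had none. Over the inner start both lists had a peak, the ADA-treated one at chr15:81810758-81811799 with 17.2 (percentile 94.0) and the untreated one at chr15:81810496-81811753 with 11.54 (percentile 77.2), sharing 996 bp. The other two ADA-treated peaks in the window lay on the neighbour Zc3h7b, with 10.44, and 8359 bp past the far end of Tef, with 13.11. The promoter of the inner start, marked in both lists, is shown with its E-box in capitals (chr15:81811164-81811463, plus strand).
Tef: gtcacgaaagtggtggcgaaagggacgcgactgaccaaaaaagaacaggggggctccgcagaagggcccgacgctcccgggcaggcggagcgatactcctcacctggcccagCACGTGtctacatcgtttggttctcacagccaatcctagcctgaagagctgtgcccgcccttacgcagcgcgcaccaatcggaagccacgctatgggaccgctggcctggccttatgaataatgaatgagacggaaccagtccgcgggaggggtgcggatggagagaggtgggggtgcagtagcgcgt

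Nfil3 (chr13:52967209-52982878, minus strand), the D-box repressor, was the only member with no untreated peak in its window. Its ADA-treated peaks were chr13:52980519-52981712 over the start, with a pileup of 12.94 (percentile 69.6), and chr13:52978380-52978870, 2169 bp further into the gene, with 15.91 (percentile 89.6). Of the clock genes with a RefSeq start, Nfil3 was also the only one whose strongest ADA-treated peak over the gene lay away from a start. No other protein-coding gene lay in its window. With 50 kb on each side, Nfil3 had an untreated peak too, and 10 of 10 members were marked in both lists, where 68.7% (ADA-treated) and 49.7% (untreated) of all genes were.

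The promoters of the clock genes were rich in CpG, and promoters with more CpG lay under a peak more often in general. RefSeq promoters of 300 bases were matched for 9 members, all except Per2, with 13 entries in total. A peak overlapped a promoter of 9 of the 9 genes in the ADA-treated list, where 39.2% of all genes with an entry were marked, and of 5 of 9 in the untreated list, where 15.2% were. The 5 genes were Clock, Per3, Cry1, Dbp and Tef, and all 5 were marked in both lists, a class that held 13.5% of all genes. The median CpG count was 30 in the members' 13 entries and 13 in all 21263 entries, and the median GC content was 70.3% and 56.3%. Over all promoters, the share under an ADA-treated peak was 2.02% at 0 to 4 CpG and 95.3% at 40 or more, and the share under an untreated peak was 0.78% and 55.4%. Each of the 9 genes had a promoter with at least 18 CpG. Of all genes with such a promoter, 73.7% had an ADA-treated peak over any of their promoters and 30.2% an untreated one. These shares are nearer to the members' 9 of 9 and 5 of 9 than the shares over all genes. The part of CpG content in the members' counts was not tested. Peaks were called against 1 constant background, with no local correction. The part of base composition or open chromatin in the peaks over CpG-rich promoters was therefore not tested either. The entries with 9 CpG, at the innermost Clock start and the outer Tef start, were overlapped by ADA-treated peaks too. The Tef entry lay wholly under its peak. The Clock entry was overlapped in part, by the end of the peak that spans the Clock entries with 46 and 42 CpG.

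**Figure D4:**
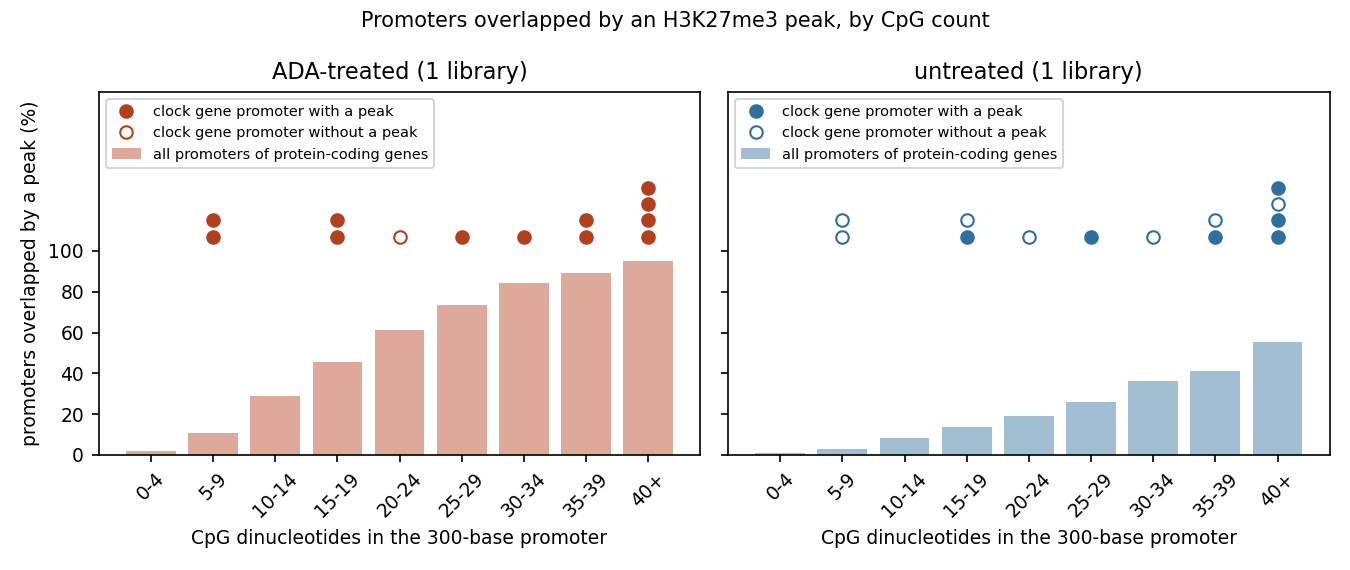
Percentage of RefSeq promoters overlapped by a peak (bars) against the number of CpG dinucleotides in the 300-base promoter, in the ADA-treated library (left) and the untreated library (right). Circles stand for the 13 promoters of clock genes, placed above their CpG class at no set height and filled where a peak overlaps them. The bars climb to 95.3% and 55.4% in the CpG-richest class, and 12 and 6 of the 13 circles are filled.

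Clock motifs occurred in some of these promoters. They were searched as exact letters on both strands in the 300 bases. The E-box CACGTG lay in promoters of 3 of 9 members, Per1, Cry1 and Tef, and in 8.91% of all genes. The variant CACGTT lay in Cry1 and Cry2 and in 5.49% of all genes. The D-box TTATGTAA lay in Per3 alone among the members and in 1.05% of all genes, and the D-box TTACGTAA and the cyclic AMP element TGACGTCA lay in none of the 9 and in 0.14% and 2.54% of all genes. The core site of ROR and REV-ERB receptors, searched as NNAGGTCA, lay in Clock, Per1 and Nfil3 and in 16.6% of all genes. Promoters with an E-box stood on both sides. An untreated peak overlapped those of Cry1 and of the inner Tef start, and none overlapped those of Per1 and of the outer Tef start. These matches describe the letters in the window and no binding.

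Other genes of the clock were counted in the same way, from a list of 22. A peak lay within 20 kb of or over 19 of the 22 genes (ADA-treated) and over 13 (untreated), where 61.1% and 39.3% of all genes were marked. Within 2 kb of or over the gene, 12 genes had a peak in both lists, 6 in the ADA-treated list alone, 0 in the untreated list alone and 4 in neither. In this window 51.2% of all genes had an ADA-treated peak and 27.9% an untreated one, with 25.5% in both lists and 25.7% in the ADA-treated one alone. Among the 12, Nr1d2, which encodes the REV-ERB beta repressor, had a pileup of 19.45 (ADA-treated) and 10.38 (untreated). Bhlhe40, an E-box repressor, had 16.48 (ADA-treated) and 10.13 (untreated). The deacetylase gene Sirt1 had 15.9 (ADA-treated) and 10.67 (untreated). Arntl, which encodes BMAL1, the partner of CLOCK and NPAS2, had 15.36 (ADA-treated) and 12.35 (untreated). Gsk3b, Fbxw11, Cipc, Csnk1e, Csnk1d, Usp2 and Bhlhe41 were also among them. In the ADA-treated list alone, the F-box protein gene Fbxl21 had a pileup of 14.92, the activating receptor gene Rora 12.87 and the REV-ERB alpha gene Nr1d1 11.88, and Btrc and Timeless were also in this class. Arntl2, Rorb, Ciart and Hlf had no peak in this window. Of these, Arntl2, Rorb and Hlf, the last a D-box activator related to Dbp and Tef, had no peak within 20 kb in either list.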

How the data were processed

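Kidney ChIP-seq for H3K27me3 gave 1 ADA-treated library, 1 untreated library and 1 input, grouped by the title and antibody labels. Per the file headers, the authors ran the broad mode of MACS 2.1.2 on each library with an input named for it (the labels list 1), on paired-end fragments, at a p cutoff of 0.001 and without a local background. The deposited pileup is a fragment signal averaged over the peak, and the deposited fold is set against 1 constant background of 3.24 fragments in both lists, so the input corrects no local copy number or open chromatin. The −log10 p and −log10 q are the caller's deposited values. The headers state that no q was computed, yet the column is filled and was used as it stands. The aligner was not given in the sources used here.

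CASAVA 1.4 and mm9 are named in the submitters' processing notes. Peak midpoints lay within 1 kb of a GRCm38.p6 gene end for 50.03% of ADA-treated and 48.8% of untreated peaks, against 12.9% and 12.1% with genes shifted by -10 kb, and unplaced sequences carry GRCm38 names. All coordinates are thus GRCm38, counted from 1. Gene positions, names and promoters come from RefSeq tables of GRCm38.p6.

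Overlaps of at least 1 bp were counted with Python 3.11.15, numpy 2.4.6 and pandas 2.3.3. The counting was tested on simulated peaks, where it called the same genes as bedtools 2.31.1. No test between groups was run. Background shares are over all protein-coding genes. Adjacent genes can share a peak. The members and lists were chosen with earlier results of these data known. All 10 members are named. Of the 2 wider lists, genes with a peak within 2 kb of or over them are named, with values for at least the 4 of largest fold in each class. Some genes that this rule names are not reported here. Alternatives were gene windows from 0 to 50 kb, nearest genes, stricter peaks, lists of equal length, merged peaks and stricter overlaps. Figures were drawn with matplotlib 3.10.9.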

Additional observations from a re-analysis of the deposited data

How the results depend on the processing

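No paired analysis was possible because each group holds 1 library. The ADA-treated count of members (10) was the same under all settings tried, and the untreated count (9) moved with the window and with the strength asked of a peak. By window it was 8 from 0 to 10 kb, 10 with 50 kb (49.7% of all genes) and 6 within 2 kb of either gene end. With a pileup of at least 12, an untreated peak was left at 2 of 10 members (where 9.05% of all genes were marked), 0 activators, 1 repressor (Per3), 1 output regulator (Dbp), 1 of the other clock genes and 2 of 15 kidney output genes. The peaks at members then numbered 20 (ADA-treated) and 2 (untreated), 2 of each overlapping, and 7 kidney output genes had an ADA-treated peak. With a q of at most 5% or a −log10 p of at least 5, the untreated list again marked 2 members, 0 activators, 1 repressor and 1 output regulator, with 0 other clock genes and 1 kidney output gene, where 4.26% (q) and 3.79% (p) of all genes were marked. It had 2 peaks at members, and 2 peaks of each list overlapped. At that p the ADA-treated list had 19 peaks at members and 7 kidney output genes. With lists of equal length there were 21 peaks at members (ADA-treated) and 13 (untreated), and 7 kidney output genes (ADA-treated) against 8 (untreated), which turns the order of 11 and 8 in the full lists round. All genes stood at 46.6% and 39.3%.

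Peak numbers at members followed the window. They were 17 (ADA-treated) and 8 (untreated) on the gene body alone, 20 in the ADA-treated list with 2 kb, 12 and 7 within 2 kb of either gene end, and 19 and 8 with each peak given to its nearest gene. With 50 kb there were 25 untreated peaks, and 15 peaks of each list overlapped. Within 2 kb of either gene end the untreated list marked 3 repressors and 1 output regulator, and 7 and 4 kidney output genes were marked in the ADA-treated and the untreated list, where 46.5% and 22.8% of all genes were. Requiring overlap of 50% of both peaks left 5 overlapping places of 9. Merging peaks within 1 kb joined no peaks in either list, so its counts are those of the full lists and check nothing. Pileups close to 10 lie at the edge of what these depths list, so an absent peak is a value under that limit.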

Other observations

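Kidney genes of salt and water handling with known daily rhythms were counted in the same way. Of 15, 11 had an ADA-treated peak and 8 an untreated peak over the gene or within 20 kb, where 61.1% and 39.3% of all genes did. Within 2 kb of or over the gene, 6 were marked in both lists, 5 in the ADA-treated list alone, 1 in the untreated list alone and 3 in neither. The glucocorticoid receptor gene Nr3c1 had a pileup of 15.75 (ADA-treated) and 11.41 (untreated). The kinase gene Sgk1, which raises sodium channel activity, had 15.54 (ADA-treated) and 11.17 (untreated). The kinase gene Wnk1 had 15.31 (ADA-treated) and 12.59 (untreated). Scnn1a, the alpha subunit of the epithelial sodium channel, had 14.72 (ADA-treated) and 10 (untreated). The mineralocorticoid receptor gene Nr3c2 had 13.64 (ADA-treated) and 11.55 (untreated). The water channel gene Aqp2 had 10.36 (ADA-treated) and 14.36 (untreated), in peaks at different places that did not overlap. Wnk4 had 16.29 in the ADA-treated list alone, followed there by the sodium transporter genes Slc12a3 with 11.3, Slc9a3 with 11.12 and Scnn1b with 10.98, and by Scnn1g. The glucose transporter gene Slc5a1 had an untreated peak alone, at the smallest listed pileup of 10. Avpr2, Aqp4 and Tsc22d3 had no peak in either list.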
